A study of Mus musculus with 7 samples.

Results

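In all, 10 genes of transforming growth factor β (TGF-β) signaling were examined in 6 ChIP-Seq peak lists from mouse cells. They were the ligands Tgfb1, Tgfb2 and Tgfb3, the latency protein Ltbp1, the receptors Tgfbr1, Tgfbr2 and Tgfbr3, the signal transducer Smad3, and the inhibitory Smads Smad6 and Smad7. The 10 genes were taken by name and not by any measured value, from 18093 protein-coding genes that could be placed on both genome builds used. Peaks were sorted into 3 places that exclude each other: within 1 kb of the gene start (a marked promoter), in the rest of the gene, and within 50 kb of either end of the gene.

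The study mapped active histone marks in a search for regulatory regions of Sox9, the master regulator of cartilage formation. Primary chondrocytes from rib cartilage of newborn mice gave 2 libraries of H3K27ac (acetylation of histone H3 at active promoters and enhancers; called replicate 1 and replicate 2) and 1 library of H3K4me2 (a histone H3 methylation of promoters and enhancers). Primary dermal fibroblasts from newborn dorsal skin, the control cell type, gave 1 H3K27ac library. A further H3K27ac library each came from chondrocytes of WT mice and of E160(delta/delta);E308(delta/delta) mice, called the deletion library, which lack the Sox9 enhancers E160 and E308 on both alleles. These mice were made by CRISPR/Cas9 editing of embryos in 2 steps, so that the deletions were present in all cells and not in cartilage alone. The labels give no genotype for the other libraries and do not say how many animals were pooled in any library. Apart from chondrocyte H3K27ac, each group was a single library, so the comparisons below rest on single libraries and carry no p-value.

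TGF-β is secreted in a latent form, bound through its propeptide to latent TGF-β binding proteins such as Ltbp1, which tether it to the extracellular matrix. The released ligand binds the type II receptor Tgfbr2, which recruits and phosphorylates the type I receptor Tgfbr1, and the coreceptor Tgfbr3 (betaglycan) presents the ligand, Tgfb2 above all. Tgfbr1 phosphorylates Smad2 and Smad3, which enter the nucleus with Smad4, whereas Smad6 and Smad7 are induced by signaling of the TGF-β family and inhibit it. In cartilage, TGF-β signaling promotes matrix synthesis and holds back terminal hypertrophic differentiation of chondrocytes.

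The lists held 19458 (fibroblast) to 66369 (H3K4me2) peaks and give no read numbers, so the depth of the libraries is unknown. Their lowest score was 50 in replicate 1, H3K4me2 and fibroblasts, 13 in replicate 2, and 20 in WT and the deletion library. The lists may therefore differ in peak cutoff, and the part of this in the comparisons between lists was not tested. Replicate 2 carried GRCm38 positions and the other 5 lists mm9 positions, and therefore replicate 2 was compared by gene or by distance from the gene start, never by coordinate. Of 14 chondrocyte marker genes, 10 to 12 had a marked promoter in the 5 chondrocyte lists and 1 (Sox9) in fibroblasts. Replicate 1 marked neither Sox9 nor Col2a1, and H3K4me2 did not mark Col2a1. Of 9 fibroblast marker genes, 5 were marked in fibroblasts, without Col1a1, Col1a2, Col3a1 and Prrx1, and 3 to 7 in the chondrocyte lists. No promoter of the 13 muscle, endothelial, blood and keratinocyte markers was marked in any H3K27ac list, and 3 were marked in the H3K4me2 list.

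The sequences below are examples of starts and distal peaks that chondrocyte lists held and the fibroblast list did not. The first set holds the 200 bases directly upstream of 3 starts that had no fibroblast peak, from RefSeq promoters of GRCm38.p6, which had an entry for 7 of the 10 genes. They lie at chr1:186705990-186706189 (Tgfb2, minus strand), chr17:75005329-75005528 (Ltbp1, the 5′ start of the gene, plus strand) and chr17:75178581-75178780 (Ltbp1, a start inside the gene, plus strand). Capitals mark TATAAA, TGACGTCA (the cAMP response element) or GGGCGG (the GC box), searched on both strands after the peaks had been seen. Of 32851 promoter stretches of this length, 9.96% held TATAAA, 1.47% TGACGTCA and 31.0% GGGCGG.
Tgfb2 start: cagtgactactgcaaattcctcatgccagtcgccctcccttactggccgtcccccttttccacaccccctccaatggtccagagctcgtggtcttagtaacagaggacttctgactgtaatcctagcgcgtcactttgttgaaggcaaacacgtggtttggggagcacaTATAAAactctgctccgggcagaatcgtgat
Ltbp1 5′ start: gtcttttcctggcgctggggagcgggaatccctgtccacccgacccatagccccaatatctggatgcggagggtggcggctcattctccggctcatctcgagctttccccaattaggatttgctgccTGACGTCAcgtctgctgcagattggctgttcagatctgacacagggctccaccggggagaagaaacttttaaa
Ltbp1 internal start: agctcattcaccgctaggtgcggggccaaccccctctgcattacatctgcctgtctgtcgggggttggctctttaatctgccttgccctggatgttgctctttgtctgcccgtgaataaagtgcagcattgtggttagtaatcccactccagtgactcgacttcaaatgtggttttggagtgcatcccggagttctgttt
The Tgfb2 stretch held TATAAA close to the start, the 5′ Ltbp1 stretch held TGACGTCA, and the internal Ltbp1 stretch held none of the 3 motifs. Their CG dinucleotides numbered 8, 10 and 6 in the same order, against a median of 5 over all stretches.

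The second set holds 200 bases of the mm9 plus strand around the WT summit of 5 intronic peaks that were found in every chondrocyte list and not in fibroblasts. They lie at chr17:75510553-75510752 (Ltbp1, 105 kb downstream of its start), chr4:47420461-47420660 (Tgfbr1, 54.2 kb), chr9:116075233-116075432 (Tgfbr2, 8.58 kb), chr5:107596423-107596622 (Tgfbr3, 122 kb) and chr9:63845765-63845964 (Smad6, 23.6 kb). Capitals mark AACAAT (a core motif of Sox factors) or TGANTCA (AP-1), searched on both strands beside the Smad motifs CAGACA and GTCTAGAC.
Ltbp1 intron: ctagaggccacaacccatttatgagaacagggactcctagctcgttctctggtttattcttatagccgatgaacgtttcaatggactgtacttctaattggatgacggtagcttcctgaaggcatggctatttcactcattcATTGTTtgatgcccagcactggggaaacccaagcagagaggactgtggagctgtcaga
Tgfbr1 intron: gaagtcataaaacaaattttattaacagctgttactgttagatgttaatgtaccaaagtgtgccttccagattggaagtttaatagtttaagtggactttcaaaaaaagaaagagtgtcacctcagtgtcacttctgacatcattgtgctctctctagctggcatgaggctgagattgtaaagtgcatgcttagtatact
Tgfbr2 intron: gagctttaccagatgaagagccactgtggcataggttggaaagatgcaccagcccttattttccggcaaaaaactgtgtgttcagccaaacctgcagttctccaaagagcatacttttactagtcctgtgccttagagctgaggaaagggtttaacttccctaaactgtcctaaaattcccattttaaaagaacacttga
Tgfbr3 intron: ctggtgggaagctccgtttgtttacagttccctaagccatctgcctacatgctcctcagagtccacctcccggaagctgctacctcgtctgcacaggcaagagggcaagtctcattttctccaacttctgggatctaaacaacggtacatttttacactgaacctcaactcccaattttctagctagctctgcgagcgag
Smad6 intron: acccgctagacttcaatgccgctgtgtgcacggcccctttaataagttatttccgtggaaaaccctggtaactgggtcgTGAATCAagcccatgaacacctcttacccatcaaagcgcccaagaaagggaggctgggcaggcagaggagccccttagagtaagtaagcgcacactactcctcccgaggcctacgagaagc
The Ltbp1 window held 1 Sox motif, the Smad6 window held 1 AP-1 motif, and the other 3 windows held none of the 4 motifs. Among the same windows at all 33369 WT summits, 6.25% held AACAAT, 4.54% TGANTCA, 16.6% CAGACA and 0.198% GTCTAGAC. No match overlapped another, and a match describes the letters of these windows only.

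Most promoters of the 10 genes were marked in each list. Replicate 1 marked 9 of 10 (44.2% of all genes), replicate 2 marked 8 (43.1% of all genes), H3K4me2 marked 10 (66.3%), fibroblasts marked 8 (47.5%), WT marked 10 (50%) and the deletion library marked 10 (47.1%). The promoters of 8 genes were marked in all 6 lists, against 36.1% of all genes. With 10 genes, the exact binomial 95% interval of 8 of 10 runs from 44.4% to 97.5% and covers counting error only; it includes the share of all genes in fibroblasts and not that in replicate 2. The exceptions were Tgfb2 and Ltbp1, and neither promoter was marked in fibroblasts. In replicate 1 alone, 3.08% of all genes were marked without a fibroblast peak, and Tgfb2 was such a gene.

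**Figure D1:**
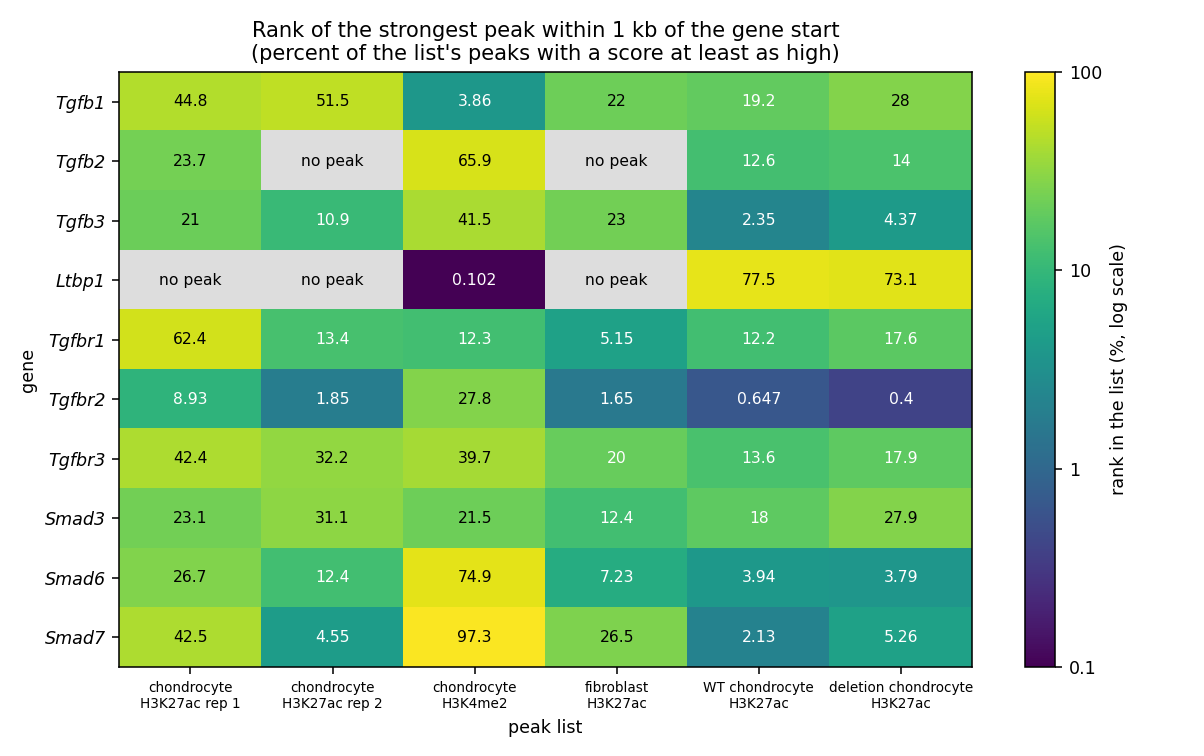
Rank of the strongest peak within 1 kb of each gene start (rows) in each list (columns), as the percent of the list's peaks with a score at least as high, on a log color scale where dark marks a strong peak and grey no peak. Tgfbr2 had the lowest percentages over the H3K27ac lists, Ltbp1 had a strong H3K4me2 peak beside weak or absent H3K27ac peaks, and Tgfb2 had no fibroblast peak; its missing peak in replicate 2 depends on the start used.

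Peak strength is given below as a rank, the percent of a list's peaks with a score at least as high, so that a low percentage is a strong peak. Ranks are within a list, since scores are not comparable between lists. Replicate 2, WT and the deletion library also give the fold enrichment of each peak over input.

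Tgfb1 (chr7:26472021-26490096, mm9, plus strand), the ligand most widely expressed in tissues, had a marked promoter in every list. Its promoter peak ranked at 44.8% in replicate 1, 51.5% in replicate 2, 3.86% in H3K4me2, 22.0% in fibroblasts, 19.2% in WT and 28.0% in the deletion library. It was enriched 5.25-fold over input in replicate 2, 17.2-fold in WT and 10.8-fold in the deletion library. The promoter was thus of middle rank for H3K27ac in replicates 1 and 2 and better ranked in fibroblasts, WT and the deletion library. Its H3K4me2 peak was among the stronger ones of that list. Most of the other peaks in the window of this short gene stood at starts of other genes: B9d2 (5.84 kb upstream), Exosc5 and Bckdha (27.8 and 28.2 kb upstream), Ccdc97 (32.1 kb downstream) and Hnrnpul1 (67.7 kb downstream), all marked in all 6 lists. A peak in the first part of the gene, 1.77 kb downstream of the start, was found in every list, in fibroblasts as part of the promoter peak. The only replicate 1 peak of Tgfb1 away from gene starts without a fibroblast peak (21.6 kb downstream, rank 86.5%) had no partner in any other list.

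Tgfb2 (chr1:188447065-188529871, mm9, minus strand), the ligand that depends most on betaglycan, had chondrocyte peaks at its promoter and none in fibroblasts. The promoter peak ranked at 23.7% in replicate 1 (2640 bp wide), 65.9% in H3K4me2 (3827 bp), 12.6% in WT (5533 bp, 19.5-fold) and 14.0% in the deletion library (2635 bp, 15.0-fold). In replicate 2, the GRCm38 gene start lies 3708 bp upstream of the transcript start that answers to the mm9 start, and no peak reached it. A replicate 2 peak of 900 bp (rank 32.3%) lay 0.493 kb downstream of that transcript start, and with RefSeq transcript starts, which also include the internal start of Ltbp1, replicate 2 marked 10 of the 10 genes. By gene start, 1.66% of all genes were marked in both replicates and not in fibroblasts, and 3.76% in fibroblasts and in neither replicate; none of the 10 genes fell in either class. Counting the promoter peak, 6 of the 8 replicate 1 peaks of Tgfb2 had no fibroblast peak, against 48.3% of all replicate 1 peaks. A peak 10.1 kb downstream in the gene (rank 53.2%) and a peak 95.7 kb downstream, past the end of the gene (593 bp, rank 39.6%), were found in every chondrocyte list and not in fibroblasts. Both fibroblast peaks of Tgfb2 were shared with replicate 1, and one of them stood at the promoter of its neighbor Rrp15 (43.4 kb upstream), which was marked in all 6 lists.

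Tgfb3 (chr12:87397694-87419991, mm9, minus strand), the third ligand, had one of the stronger promoter peaks of the group in the chondrocyte H3K27ac lists. In fibroblasts, of the marked promoters of the group, only that of Smad7 ranked weaker. It ranked at 21.0% in replicate 1, 10.9% in replicate 2 (16.3-fold), 41.5% in H3K4me2, 23.0% in fibroblasts, 2.35% in WT (37.3-fold) and 4.37% in the deletion library (22.2-fold). The peak was 1465 bp wide in fibroblasts and 2350 to 4505 bp in the chondrocyte lists. A peak 4.0 kb upstream of the start (968 bp in replicate 1, rank 48.3%, 25.1-fold in WT and 19-fold in the deletion library) was found in every chondrocyte list and not in fibroblasts. This peak lay over the transcribed gene 1700019E19Rik, as did a weaker peak about 12.3 kb upstream (rank 93.5% in replicate 1) that fibroblasts shared. In WT the flanks of Tgfb3 held 17 peaks and in the deletion library 9, against 2 in each of replicate 1, replicate 2 and fibroblasts.

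Ltbp1 (chr17:75404908-75791852, mm9, plus strand), which stores latent TGF-β in the matrix, had the weakest H3K27ac at its 5′ start of the 10 genes. No peak reached that start in replicate 1, replicate 2 or fibroblasts, and the peak ranked at 77.5% in WT (5.05-fold) and 73.1% in the deletion library (5.26-fold). In contrast, the H3K4me2 peak at the 5′ start (2124 bp) ranked at 0.102% of its list. The 5′ start thus held one of the highest-scoring H3K4me2 peaks of the list and little or no H3K27ac. A transcript start inside the gene, 173 kb downstream, carried both marks. Within 1 kb of it, peaks ranked at 24.8% in replicate 1 (2814 bp), 27.6% in H3K4me2 (5193 bp), 25% in WT (3449 bp, 15.3-fold) and 24.0% in the deletion library (13.7-fold), and none was found in fibroblasts. In replicate 2, a peak of 595 bp at chr17:75178622-75179216 of GRCm38 (rank 81.3%) covered the matching RefSeq start. The internal start therefore carried H3K27ac in all 4 chondrocyte H3K27ac lists and had no peak in the fibroblast list.

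Further into Ltbp1, an intronic peak 105 kb downstream of the 5′ start (chr17:75509178-75511503, 2326 bp, rank 11.3% in replicate 1) and another 302 kb downstream (940 bp, rank 28.9%) were found in every chondrocyte list and not in fibroblasts. The first is the Ltbp1 intron sequence shown above. All 7 replicate 1 peaks of Ltbp1 lacked a fibroblast peak, against 67.5% of all distal replicate 1 peaks. Both fibroblast peaks (50.3 and 323 kb downstream, ranks 43.6% and 99.7%) lacked a replicate 1 and a WT peak. Of all distal fibroblast peaks, 53.8% lacked a replicate 1 peak and 42.0% a WT peak. No H3K27ac peak at this gene was shared between fibroblasts and replicate 1, WT or the deletion library. Per 100 kb of window, Ltbp1 had 1.44 peaks in replicate 1 and 0.411 in fibroblasts, against medians of 1.73 and 1.44 over all genes.

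**Figure D2:**
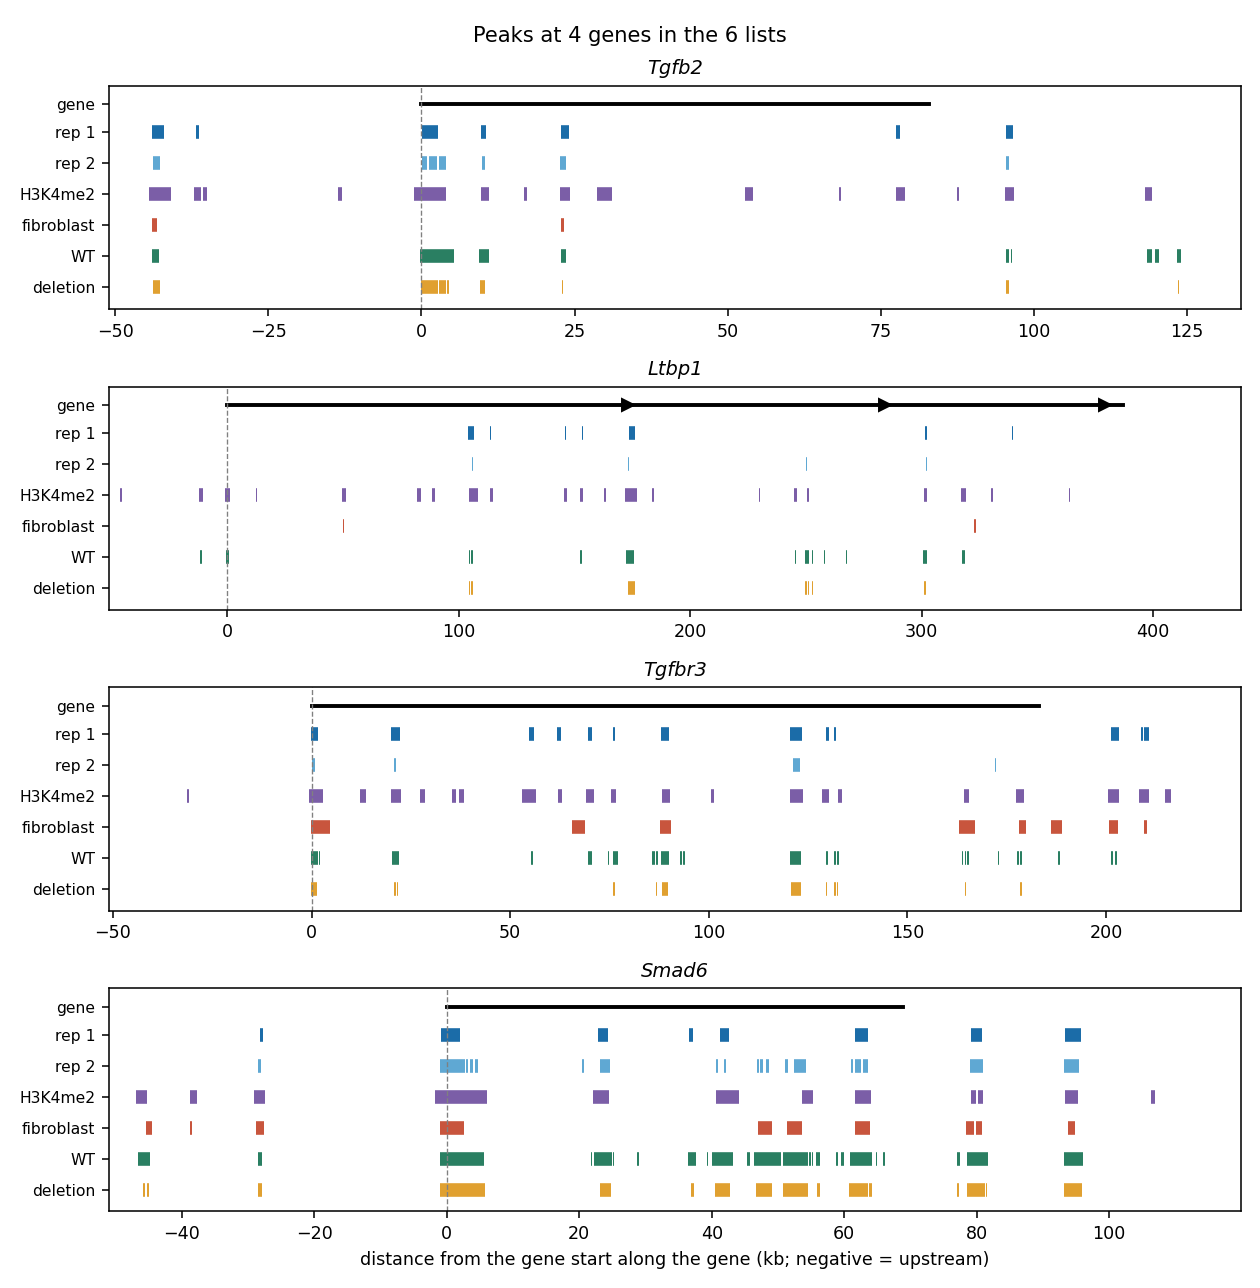
Peaks of the 6 lists (rows) at Tgfb2, Ltbp1, Tgfbr3 and Smad6, drawn to scale by distance from the gene start in kb, with the gene as a black line, the start as a dashed line and internal transcript starts of Ltbp1 as arrowheads. At Ltbp1 the internal start 173 kb downstream lay under peaks of the 5 chondrocyte lists and none of fibroblasts. At Smad6, 7 of the 11 fibroblast peaks had a replicate 1 partner and 10 a WT partner. Of all fibroblast peaks, 62.4% had a replicate 1 partner and 73.8% a WT partner.

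Tgfbr1 (chr4:47366094-47427803, mm9, plus strand), the type I receptor kinase, was marked in every list. Its promoter peak ranked at 62.4% in replicate 1, 13.4% in replicate 2 (14.8-fold), 12.3% in H3K4me2, 5.15% in fibroblasts, 12.2% in WT (23.9-fold) and 17.6% in the deletion library (15.7-fold). The fibroblast list thus ranked this promoter highest, and the replicates differed, with replicate 1 the weakest. An intronic peak 54.2 kb downstream (chr4:47418920-47421765, 2846 bp, rank 29.0% in replicate 1) was found in every chondrocyte list and not in fibroblasts, and its summit sequence is shown above. The fibroblast peak 40.7 kb upstream (rank 44.1%) lay over an exon of Col15a1, which encodes a basement membrane collagen, and no chondrocyte H3K27ac list held it.

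Tgfbr2 (chr9:115993415-116084383, mm9, minus strand), the type II receptor that binds the ligand first, had the strongest H3K27ac promoter of the 10 genes. It ranked at 8.93% in replicate 1, 1.85% in replicate 2 (28.6-fold), 27.8% in H3K4me2, 1.65% in fibroblasts, 0.647% in WT (49.6-fold) and 0.4% in the deletion library (40.8-fold). In each of the 5 H3K27ac lists it was the best-ranked promoter of the group. The replicate 1 peak 8.58 kb downstream (chr9:116074685-116076923, 2239 bp, rank 47.3%; 8.89-fold in WT and 5.55-fold in the deletion library) was found in every chondrocyte list and not in fibroblasts. The peaks 21.5 kb downstream and 43.9 kb upstream were in contrast found in all 6 lists. All 3 fibroblast peaks of Tgfbr2 had a replicate 1 partner, against 62.4% of all fibroblast peaks.

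Tgfbr3 (chr5:107535589-107718648, mm9, minus strand), the coreceptor betaglycan, had a marked promoter in every list. The promoter peak ranked at 42.4% in replicate 1, 32.2% in replicate 2 (7.63-fold), 39.7% in H3K4me2, 20% in fibroblasts, 13.6% in WT (21.4-fold) and 17.9% in the deletion library (14.9-fold). The fibroblast promoter peak was 4725 bp wide and the chondrocyte H3K27ac peaks 883 to 1687 bp. Of 13 replicate 1 peaks at the gene, 9 lacked a fibroblast peak, against 48.3% of all replicate 1 peaks and 67.5% of distal ones. Of 8 fibroblast peaks, 4 lacked a replicate 1 peak, against 37.6% of all fibroblast peaks and 53.8% of distal ones. The highest-ranked replicate 1 peak among the former lay 122 kb downstream in an intron (chr5:107595125-107598302, 3178 bp, rank 7.9%) and had 21.1-fold enrichment in WT and 11.8-fold in the deletion library. It was found in every chondrocyte list, as was a weaker intronic peak 21.1 kb downstream (rank 31.2%). The fibroblast peaks without a replicate 1 peak clustered at the 3′ end, at 165, 179 and 188 kb downstream (4013, 1799 and 2979 bp), with another 67.2 kb downstream (3458 bp). WT had overlapping peaks at the 3 sites of this cluster, and the deletion library at 165 and 179 kb. The widest replicate 1 peak of the gene (122 kb downstream) thus had no fibroblast partner, and the fibroblast cluster had no replicate 1 partner. Of the 8 fibroblast peaks, 6 had a WT partner, against 73.8% of all fibroblast peaks.

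Smad3 (chr9:63494574-63605801, mm9, minus strand), the transducer of the TGF-β signal, was marked in every list. Its promoter peak ranked at 23.1% in replicate 1, 31.1% in replicate 2 (8.16-fold), 21.5% in H3K4me2, 12.4% in fibroblasts, 18% in WT (12.8-fold) and 27.9% in the deletion library (8.12-fold). Of 7 replicate 1 peaks, 4 lacked a fibroblast peak, against 48.3% of all replicate 1 peaks. Of 7 fibroblast peaks, 4 lacked a replicate 1 peak, against 37.6% of all fibroblast peaks. The former included a peak 147 kb downstream, past the end of the gene in an intron of Aagab (1774 bp, rank 34.1%), and a weak intronic peak 31.0 kb downstream (rank 94.3%), both found in every chondrocyte list. The highest-ranked of the latter lay 106 kb downstream near the 3′ end (2314 bp, rank 42.2%) and was also present in WT (1518 bp, 12.4-fold), in the deletion library (516 bp, 4.18-fold) and in replicate 2 by distance (296 bp, rank 91.3%). Its absence from replicate 1 was therefore not shared by the other chondrocyte H3K27ac lists.

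Smad6 (chr9:63800953-63869866, mm9, minus strand), an inhibitory Smad, stood in one of the densest H3K27ac windows of the group. Its promoter peak ranked at 26.7% in replicate 1, 12.4% in replicate 2 (15.4-fold), 74.9% in H3K4me2, 7.23% in fibroblasts, 3.94% in WT (33.7-fold) and 3.79% in the deletion library (28.7-fold). Per 100 kb of window, Smad6 had 5.92 peaks in replicate 1, 11.2 in replicate 2, 6.51 in fibroblasts, 14.2 in WT and 9.47 in the deletion library, more than 93.9% to 99.6% of all genes. Of 8 replicate 1 peaks away from gene starts, 5 were found in all 6 lists, at 94.5, 80.4, 79.5 and 62.6 kb downstream and 27.9 kb upstream. The intronic peaks 41.9 kb (1306 bp, rank 61.0%) and 23.6 kb downstream (chr9:63845580-63847030, 1451 bp, rank 15.8%) were found in every chondrocyte list and not in fibroblasts. In the lists with more peaks, 16 of 24 WT peaks had no overlapping fibroblast peak, against 56.4% of all WT peaks. Of 19 replicate 2 peaks, 10 had no fibroblast peak at a like distance, where 63.3% over the windows of all genes had one. Of the 11 fibroblast peaks, 4 had no replicate 1 partner, against 37.6% of all fibroblast peaks. The highest-ranked of the 4 lay 45.0 kb upstream (rank 52.6%), and 3 of the 4 overlapped WT peaks.

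Smad7 (chromosome 18, plus strand), the inhibitory Smad that acts on the TGF-β receptors, had broad H3K27ac over its start. The promoter peak ranked at 42.5% in replicate 1 (4805 bp), 4.55% in replicate 2 (4631 bp, 22.9-fold), 26.5% in fibroblasts (4875 bp), 2.13% in WT (14267 bp, 43.0-fold) and 5.26% in the deletion library (7193 bp, 21.1-fold). The H3K4me2 peak there was 1060 bp wide and ranked at 97.3%. The start of Smad7 was thus the inverse of the 5′ start of Ltbp1, with broad H3K27ac beside one of the weakest H3K4me2 peaks of its list. A flanking peak 24.9 kb upstream (rank 14.2% in replicate 1) and another 38.2 kb downstream (rank 57.4%) were found in all 6 lists. No Smad7 peak away from gene starts was found in every chondrocyte list without a fibroblast peak. The highest-ranked replicate 1 peak without a fibroblast peak, 10 kb downstream in an intron (3638 bp, rank 71.5%), overlapped the broad WT promoter peak.

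**Figure D3:**
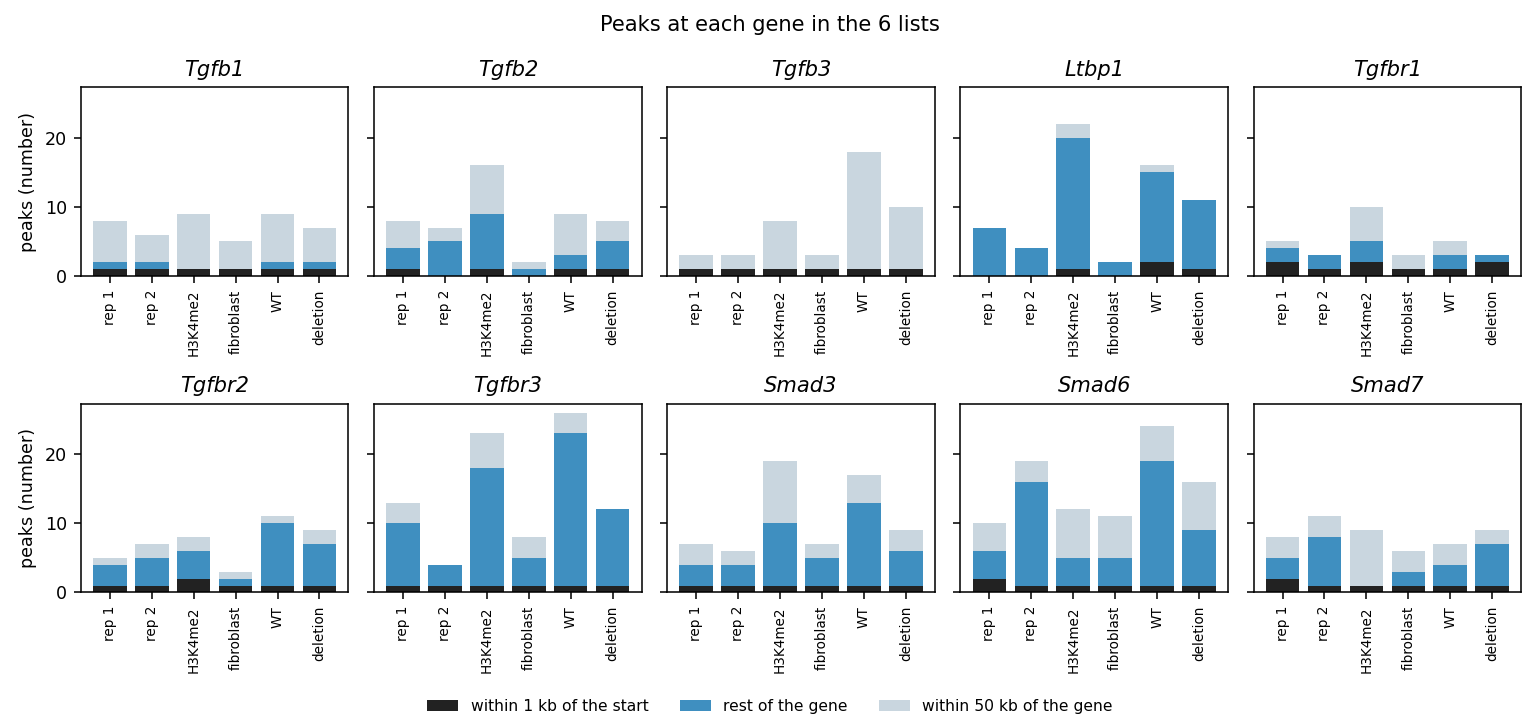
Number of peaks at each gene in the 6 lists, stacked by place (black, within 1 kb of the start; blue, rest of the gene; light grey, within 50 kb of the gene). WT had the most peaks of the H3K27ac lists at 9 of the 10 genes alone or tied (all but Smad7), and Ltbp1 carried most of its peaks inside the gene in every list.

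Together, the windows of the 10 genes held 74 peaks in replicate 1, 70 in replicate 2, 136 in H3K4me2, 50 in fibroblasts, 142 in WT and 94 in the deletion library. Per 100 kb of window these were 3.6, 3.41, 6.62, 2.43, 6.91 and 4.58 peaks in the same order, against medians of 1.73, 1.24, 4.35, 1.44, 1.88 and 1.57 over all genes. Pooled over the windows of all genes, the densities were 1.93, 1.75, 4.17, 1.6, 2.46 and 2.06. The pooled density of the 10 windows was therefore above the pooled density and the median over all genes in every list. Single genes fell below the median. These were Ltbp1 in replicate 1, replicate 2 and fibroblasts, Tgfb2 in fibroblasts and Tgfbr2 in H3K4me2. Some of the peaks in the windows belonged to neighbors. Of 11 starts of other genes inside the windows, 8 were marked in all 6 lists.

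Distal peaks of the group were compared between chondrocytes and fibroblasts with replicate 1 and with WT as the chondrocyte list. Of the 74 replicate 1 peaks at the 10 genes, 39 had no overlapping fibroblast peak (52.7%, exact 95% interval 40.7% to 64.4%), against 48.3% of all replicate 1 peaks. At gene starts 2 of 19 lacked a fibroblast peak (10.5%, 1.3% to 33.1%), against 11.2% of all replicate 1 peaks there. Away from gene starts 37 of 55 lacked one (67.3%, 53.3% to 79.3%), against 67.5% of all distal replicate 1 peaks. In the other direction, 18 of 50 fibroblast peaks lacked a replicate 1 peak (36.0%, 22.9% to 50.8%), against 37.6% of all. At gene starts 0 of 14 fibroblast peaks lacked a replicate 1 peak (0%, 0% to 23.2%), against 16.3% of all fibroblast peaks there. All 18 lay away from gene starts, where they were 18 of 36 peaks (50%, 32.9% to 67.1%), against 53.8% of all distal fibroblast peaks. Each of these replicate 1 comparisons had the background inside its interval.

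With WT as the chondrocyte list, 95 of 142 peaks lacked a fibroblast peak (66.9%, 58.5% to 74.6%), against 56.4% of all WT peaks, and away from gene starts 92 of 125 (73.6%, 65.0% to 81.1%), against 72.2%. The first background lay outside the interval and the second inside it, and 125 of the 142 peaks were distal. Of the WT peaks at or above the median score, 26 of 57 lacked a fibroblast peak (45.6%, 32.4% to 59.3%), against 30.4% of all, outside the interval. Of those below the median score, 69 of 85 lacked one (81.2%, 71.2% to 88.8%), against 83% of all, inside the interval. In the other direction, 8 of 50 fibroblast peaks lacked a WT peak (16.0%, 7.17% to 29.1%), against 26.2% of all, and away from gene starts 8 of 36 (22.2%, 10.1% to 39.2%), against 42%. Distal fibroblast peaks of the group thus had a WT partner more often than the list as a whole, with the background outside the interval. WT had 6.91 peaks per 100 kb at these genes, and the part of this density in the result was not tested.

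The lists of 1 cell type also differed among themselves. Of the 39 replicate 1 peaks without a fibroblast peak, 32 overlapped an H3K4me2 peak, 28 a WT peak and 24 a deletion peak, and 19 had a replicate 2 peak within 1 kb by distance from the start. Of the 35 replicate 1 peaks with a fibroblast peak, the same counts were 32, 34, 32 and 26. No share over all peaks was computed for these counts or for the overlaps of the 18 fibroblast peaks that follow. They describe the 10 genes and do not set them apart from other genes. Of the 18 fibroblast peaks without a replicate 1 peak, 11 overlapped a WT peak, and 7 lacked both, at Ltbp1 (2 peaks), Tgfbr1, Tgfbr3, Smad3, Smad6 and Smad7; none of these 7 had a deletion peak or a replicate 2 peak by distance. Of the 55 replicate 1 peaks away from gene starts, 14 were found in every chondrocyte list and not in fibroblasts, at 8 genes (2 each at Tgfb2, Ltbp1, Tgfbr2, Tgfbr3, Smad3 and Smad6, 1 each at Tgfb3 and Tgfbr1), and 11 were found in all 6 lists. The former were 25.5% (14.7% to 39.0%), against 13% of 23950 pairs of a gene and a distal replicate 1 peak in its window over all genes, and the latter 20% (10.4% to 33.0%), against 24.7%. The first background lay just outside the interval. A peak in the windows of several genes counts once for each, neighboring peaks are not independent, and differences in distance between the builds at other genes were not tested.

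The replicates and the marks overlapped as follows. Of the 70 replicate 2 peaks, 46 had a replicate 1 peak at a like distance (65.7%, 53.4% to 76.7%), against 73.1% over the windows of all genes, and 32 a fibroblast peak (45.7%, 33.7% to 58.1%), against 63.3%. Of the 74 replicate 1 peaks, 62 overlapped a WT peak (83.8%, 73.4% to 91.3%), against 75.4% of all replicate 1 peaks, and 64 overlapped an H3K4me2 peak (86.5%, 76.5% to 93.3%), against 90.2%. The H3K4me2 list is the longest, and with the same number of top peaks from both lists 40.5% of the replicate 1 peaks at the 10 genes overlapped H3K4me2.

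**Figure D4:**
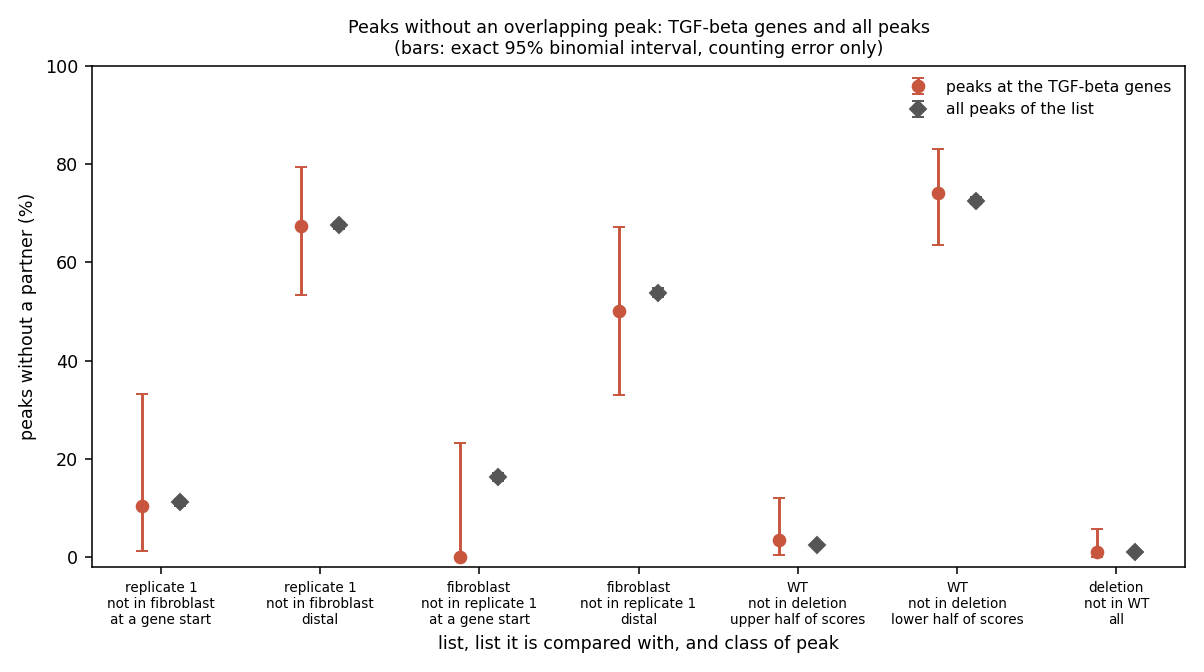
Percent of peaks without an overlapping peak in the list compared, at the 10 genes (red circles) and over the whole list (grey diamonds), with exact 95% binomial intervals for counting error. In the 7 classes drawn, the value of the whole list lay inside the interval of the 10 genes.

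All 10 promoters were marked in the deletion library, as in WT, and 65 of the 142 WT peaks at the 10 genes had no deletion peak (45.8%, 37.4% to 54.3%), against 37.2% of all WT peaks, just outside the interval. Of the WT peaks at or above the median score of the list, 2 of 57 lacked a deletion peak (3.51%, 0.428% to 12.1%), against 2.57% of all. Of those below the median score, 63 of 85 lacked one (74.1%, 63.5% to 83.0%), against 72.5% of all. Within each score class the interval of the group held the value of the list, and 85 of its 142 WT peaks were in the lower class. The 2 peaks of the upper class lay 64.0 kb downstream of the Tgfb3 start, in an intron of Ttll5 (1060 bp, rank 34.3%, 10.7-fold), and 25.6 kb downstream of the Smad7 start, in an intron (601 bp, rank 41.7%, 8.89-fold). The highest-scoring WT peaks without a deletion peak at the other 8 genes ranked between 57.3% and 83.3%. With the same number of top peaks from both lists, 17.8% of the WT peaks at the 10 genes lacked a deletion peak.

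In the other direction, 1 of 94 deletion peaks lacked a WT peak (1.06%, 0.0269% to 5.79%), against 1.12% of all deletion peaks. It was a weak intronic peak of Ltbp1 at chr17:75658354-75658595 (242 bp, 254 kb downstream, 4.26-fold, rank 81.0%).

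At the 77 WT peaks of the group that had a deletion partner, the fold enrichment was higher in WT at 70, with a median difference of 0.53 on the log2 scale (WT minus deletion; range -0.44 to 1.56). Over all 20968 shared peaks the median was 0.52, and 93.9% were higher in WT, so the peaks at the 10 genes moved with the list as a whole. The medians by gene were 0.48 for Tgfb1 (7 peaks), 0.47 for Tgfb2 (6), 0.55 for Tgfb3 (9), 0.16 for Ltbp1 (9), 0.58 for Tgfbr1 (2), 0.47 for Tgfbr2 (6), 0.53 for Tgfbr3 (11), 0.65 for Smad3 (9), 0.38 for Smad6 (13) and 0.70 for Smad7 (5). Ltbp1 was the gene with the smallest median, and 3 of its 9 shared peaks were not higher in WT. The largest difference was at Smad3, 107 kb downstream, with 12.4-fold in WT and 4.18-fold in the deletion library, and the lowest at Tgfbr3, 132 kb downstream, with 6.35-fold and 8.61-fold. With 1 library per genotype, an effect of the deletion and a difference in enrichment between the libraries cannot be told apart.

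**Figure D5:**
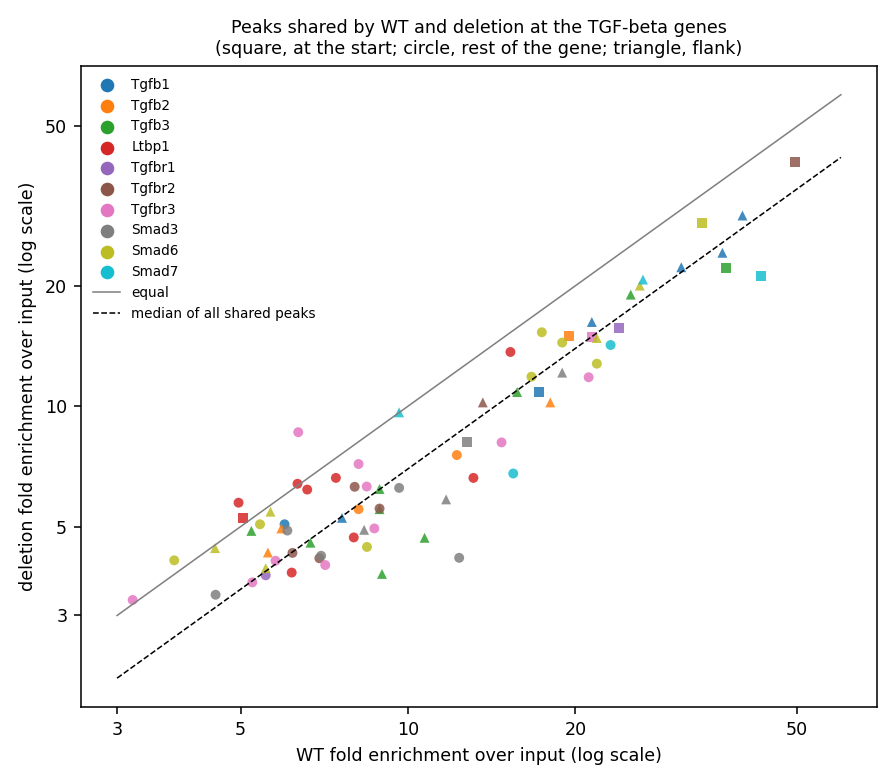
Fold enrichment over input of the 77 shared peaks at the 10 genes in WT (x axis) and in the deletion library (y axis), both on log scales, colored by gene, with shapes for the place of the peak. The grey line marks equal values and the dashed line the median of all shared peaks, around which most points lie; the Smad3 peak with the largest difference lies below it at 12.4-fold in WT.

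The promoters of 30 other genes of the pathway were looked up in the same way. Replicate 1 marked 19 (63.3%), replicate 2 marked 22 (73.3%) and H3K4me2 marked 25 (83.3%). Fibroblasts marked 25 (83.3%), WT marked 24 (80%) and the deletion library marked 22 (73.3%). The shares of all genes given above lay inside the exact intervals for replicate 1 (43.9% to 80.1%) and H3K4me2 (65.3% to 94.4%). They lay below those for replicate 2 (54.1% to 87.7%), fibroblasts (65.3% to 94.4%), WT (61.4% to 92.3%) and the deletion library (54.1% to 87.7%). In all 6 lists, 14 were marked (46.7%, 28.3% to 65.7%), against 36.1% of all genes, inside the interval. Among these 14 were Smad2 and Smad4, the partners of Smad3, with ranks of 12.9% and 27.5% in replicate 1 and of 0.689% and 2.22% in fibroblasts. Others were the corepressor gene Skil, the ubiquitin ligase genes Smurf1 and Smurf2, the matrix genes Dcn and Bgn, whose proteoglycans bind TGF-β, and Ltbp3. Ltbp4 and Lrrc32 were marked in no list. Furin (a protease that cleaves the propeptide), Nrros, Acvrl1 (a type I receptor of endothelium) and Tgfbi were marked in fibroblasts and in neither chondrocyte replicate (4 of 30, or 13.3%, against 3.76% of all genes). Acvrl1 was also marked in WT chondrocytes (rank 59.8%, 6.15-fold), and Acvrl1 and Nrros in chondrocyte H3K4me2 (ranks 12.7% and 21.6%). The exact interval of this share, 3.76% to 30.7%, reaches down to the value of all genes. Itgb8, whose integrin activates latent TGF-β, was marked in both replicates, with ranks of 24.1% and 82.9%, and not in fibroblasts.

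Among the other Ltbp genes, Ltbp3 was marked in all lists, Ltbp2 in all but replicate 1, and Ltbp4 in none. Fbn1, which encodes a microfibril protein, was marked in all lists except replicate 1. Its rank was 3.4% in fibroblasts, 34.9% in replicate 2 and 14.4% in WT. Ccn2, a matricellular target gene, and Tgif2, a corepressor gene, were likewise unmarked in replicate 1 alone, so that 4 of the 30 promoters were marked in every list except replicate 1. The share of all genes with this pattern was not computed.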

How the data were processed

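Per the study's methods, the authors trimmed 100 bp paired reads with fastp, aligned them with Bowtie2 2.4.4 to mm9 and called peaks in each library against input with MACS2 2.2.4; the input library was not analysed here. Replicate 2 fitted GRCm38 gene starts (43.1% of promoters marked) and not mm9 (6.23%), and GRCm38 gene positions were used for it. The deposited score ranks peaks within a list, and its lowest value differed between lists (13 to 50). In replicate 2, WT and the deletion library the deposited values also include the fold enrichment over input, a ratio, and the −log10 p and q values.

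Peaks on chromosomes 1 to 19 and X were sorted by place with 1 start per gene, the 5′ end. Lists on mm9 were compared by an overlap of at least 1 bp, and replicate 2 by peak centers within 1 kb in distance from the gene start. The same was done over the windows of all genes, to give the background; this background was added after the values at the 10 genes were seen. Shares carry exact Clopper-Pearson 95% intervals for counting error only. With 1 library per group no test was made. The scripts (Python 3.11.15, pandas 2.3.3, scipy 1.17.1, bedtools 2.31.1) were tested on simulated data. The genes, the gene lists and the comparisons were chosen with earlier results of these data known.

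All 10 genes are named, each with its promoter peak. By rule, the highest-scoring peak per gene was also named among distal replicate 1 peaks without a fibroblast peak, fibroblast peaks without a replicate 1 peak, and WT peaks without a deletion peak, and any deletion peak without a WT peak. Other peaks, among them those found in every chondrocyte list, and the promoter motifs were chosen after their values were seen. Alternatives varied the promoter window, the flank, the start used, the number of peaks, merging, the overlap and the chondrocyte library. The values of 1 other pathway gene are not reported here.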

Additional observations from a re-analysis of the deposited data

How the results depend on the processing

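Of 139 alternative values, 115 were labelled as close to the reported ones and 24 as moved. The label was broad: with the higher-scoring 50% of each list, H3K4me2 marked 7 of the 10 promoters and still counted as close. Apart from the WT minus deletion log2 differences, the values were counts or shares, which have no sign and could not reverse in direction. With the same number of top peaks from each list (19454), H3K4me2 marked 5 of the 10 promoters and 11 of the 30 other pathway promoters and had 29 peaks at the 10 genes, and WT had 66. With equal numbers in the pair of lists compared, 17.8% of the WT peaks lacked a deletion peak and 40.5% of the replicate 1 peaks overlapped H3K4me2. The higher-scoring 50% of each list left 34 peaks for the mean of the chondrocyte replicates (72 in full), 61 for H3K4me2, 28 for fibroblasts, 56 for WT and 39 for the deletion library, and 74.4% of replicate 1 peaks overlapped H3K4me2. A 50% reciprocal overlap raised the unshared shares to 75.7% (replicate 1 against fibroblasts), 64.0% (fibroblasts against replicate 1), 62.7% (WT against deletion) and 43.6% (deletion against WT), and lowered the overlap of replicate 1 with H3K4me2 to 40.5%. Merging peaks under 1 kb apart gave 32.6% for WT against deletion and 0% for deletion against WT. With WT in place of replicate 1, 66.9% lacked a fibroblast peak, 16.0% of fibroblast peaks lacked a partner and 66.2% overlapped H3K4me2. Centred on all shared peaks, the median WT minus deletion log2 difference was 0.01, and for the −log10 p it was 0.79. The cause was not tested. Without 1 of the 2 chondrocyte replicates, the promoters marked ranged from 8 to 9 (mean 8.5), the peaks from 70 to 74 and the other pathway promoters from 19 to 22 (mean 20.5). RefSeq transcript starts, an alternative chosen after seeing the data, gave 10 marked promoters in replicate 2. No paired analysis was possible because only 1 group had numbered replicates. Read depth is not given, so weak peaks missing from a shorter list were not detectable there rather than shown to be absent.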
